A study of Mus musculus with 6 samples.

Results

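The genes described here handle zinc, copper and iron, 47 genes of the 19938 that the arrays measured in mouse type II alveolar epithelial cells. They were chosen by name. They are the numbered members of the Slc30a, Slc39a, Slc11a, Slc40a and Steap families, together with the metallothioneins, transferrin and its receptor, lactoferrin, the ferritin chains, hepcidin, the ferroxidases Heph and Cp, the iron regulatory proteins Aco1 and Ireb2, and the copper transporters Slc31a1, Atp7a and Atp7b. Slc11a1, which the same naming takes in, was not analysed here. Where a gene had several probe sets, the one with the highest mean was used, as for Steap2 and Slc39a1.

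The type II cells, which make pulmonary surfactant, came from mice aged 8 weeks and were lysed 2 hours after isolation, with the cells of 3 mice pooled for each of the 6 arrays. The 3 arrays labelled KO came from mice with the alleles SP-C-rtTA, (tetO)7CMV-Cre and Gpr116flx/flx, in which a surfactant protein C promoter drives the reverse tetracycline activator that turns on Cre recombinase. The 3 control arrays came from mice with SP-C-rtTA and (tetO)7CMV-Cre and no floxed allele, so both groups carried Cre. The labels describe the mice as littermates matched for sex and age and name no inducing agent. The comparison asked how the loss of the adhesion receptor Gpr116 in these cells changes their transcripts.

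Transition metals are cofactors that become toxic when free, so cells balance their entry, storage and exit. Zinc enters the cytosol through Slc39a (ZIP) transporters, leaves it through Slc30a (ZnT) transporters, and is buffered by metallothioneins, small cysteine-rich proteins that also bind copper. Iron enters bound to transferrin, is reduced by Steap metalloreductases in endosomes, crosses the endosomal membrane through Slc11a2, is stored in ferritin, and leaves through ferroportin (Slc40a1). In the lung these genes also limit the iron and zinc open to inhaled microbes, and several respond to inflammatory cytokines in mouse and human tissues.

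Values are log2 expression from RMA, a method that scales the arrays to each other, so a difference of 1 is a doubling. Levels of different genes cannot be set against each other on this scale, because probe sets differ in brightness. Array medians lay between 6.77 and 6.81. The arrays labelled KO correlated with each other at 0.988 to 0.993 and control arrays at 0.996 to 0.998. Means of the type II marker list, with 11 of 11 markers measured, ran from 12.43 to 12.49 on the arrays labelled KO and from 12.34 to 12.36 on the control arrays. The probe set of the targeted gene, now named Adgrf5, read 11.89, 11.78 and 11.87 on the arrays labelled KO, against 11.49, 11.53 and 11.51 on the control arrays. It was thus higher, not lower, on the arrays labelled KO (0.34 ± 0.05 on log2, limma adjusted p = 0.0119). The call was lost when any 1 control array was left out, at adjusted p between 0.0596 and 0.0648. The positions of its probes are unknown here and may be outside the deletion, so the value is no check of the labels. All directions below rest on the labels.

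Of the 47 metal handling genes, 9 rose and 2 fell on the arrays labelled KO, and 36 did not pass the test. A gene was called at an adjusted p under 0.05 from limma, with Benjamini-Hochberg adjustment over all 19938 genes. The members called were 23.4% of the list, against 8.49% of all genes. By direction they were 19.1% higher and 4.26% lower, against 3.36% and 5.13% of all genes. Among genes with a mean of 6 or more, 4.54% were called higher and 6.94% lower, and 42 members reached that level, with the same 9 and 2 called. The median difference of the members was 0.12 on log2, beside 0.0033 for all genes, and 33 of the 47 differences were positive. Without overlap between the groups, 18 members lay above the controls and 7 below (38.3% and 14.9%), against 14.8% and 12.8% of all genes (27.6% in either direction).

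The size of the called changes differed between roles. The metalloreductases Steap1, Steap2 and Steap4 and the metallothionein Mt2 rose by 0.82 to 1.38 on log2, and the divalent metal transporter Slc11a2 changed by -0.58. The fourth metalloreductase, Steap3, was not called and stood at -0.18. The zinc and copper transporters that were called differed by 0.37 or less in either direction. In a fit that paired arrays of the same replicate number (replicate block), 5 members were called higher and 1 lower: Steap1, Steap2, Steap4, Mt2 and Mt1, and Slc11a2. These were 10.6% and 2.13% of the members, against 3.08% and 4.86% of all genes in the same fit. The calls for zinc and copper transporters were then lost, with adjusted p between 0.051 and 0.104.

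**Figure D1:**
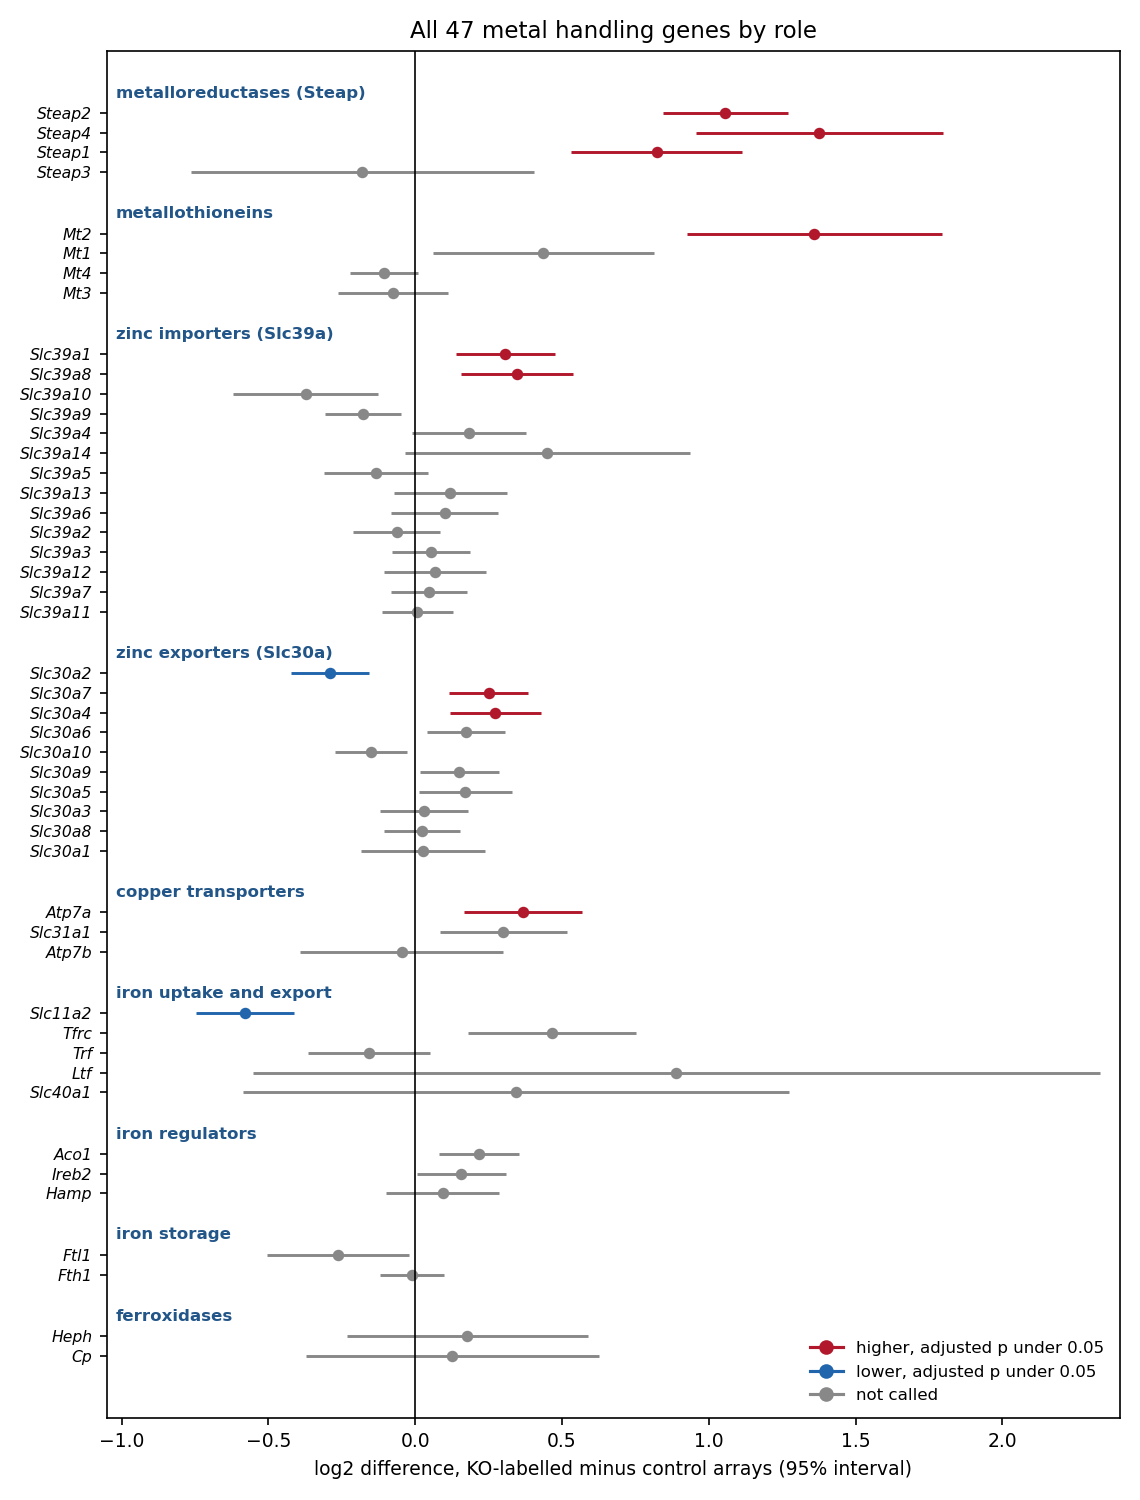
Log2 difference of each of the 47 genes, arrays labelled KO minus control arrays (x axis), with its 95% interval from limma, grouped by role and sorted by p within a role. Red marks the 9 genes called higher, blue the 2 called lower and grey the 36 not called; the Steap genes and Mt2 lie farthest from 0 among the called ones.

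The Steap metalloreductases rose most, with 3 of 4 members higher. Steap4, which reduces iron and copper and is induced by inflammatory cytokines in mouse fat and liver, read 9.74, 10.49 and 10.18 on the arrays labelled KO, against 8.73, 8.89 and 8.66 on the control arrays. Every array labelled KO lay above every control array, and array 1 was the lowest of them. The mean difference was 1.38 ± 0.18 on log2 (SE, n = 3 per group), or 2.60-fold (limma adjusted p = 0.0067, and 0.000482 to 0.0466 over 13 alternative settings).

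Steap2, a second iron and copper reductase, read 10.31, 10.22 and 10.55 on the arrays labelled KO, against 9.25, 9.30 and 9.36 on the control arrays. The control arrays lay close together, and all arrays labelled KO lay well above them. Steap2 rose 2.08-fold, by 1.06 ± 0.09 on log2 (limma adjusted p = 0.00389, and 0.000491 to 0.0306 over the alternatives). Its other probe set, with lower values, read 4.83, 4.85 and 5.01 on the arrays labelled KO and 4.61, 4.70 and 4.66 on the control arrays.

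Steap1 carries the haem-binding membrane part of the family without the domain that takes electrons from NADPH. It read 6.82, 6.77 and 7.22 on the arrays labelled KO, against 6.22, 6.06 and 6.06 on the control arrays, a rise of 0.82 ± 0.12 on log2 (limma adjusted p = 0.0105). Array 3 was the highest of the group labelled KO for both Steap1 and Steap2, which lie next to each other on chromosome 5 in RefSeq's GRCm38.p6 table. There Steap2 overlaps the noncoding Gm40262 and Steap1 overlaps Gm46900, and whether the probe sets keep these apart is not known here. Leaving out control 2 or control 3 ended the Steap1 call, at an adjusted p up to 0.0638.

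Steap3, the endosomal ferrireductase of red cell precursors, behaved differently. It read 7.73, 8.80 and 7.99 on the arrays labelled KO, against 8.32, 8.35 and 8.39 on the control arrays. Array 2 labelled KO lay above all controls and the other 2 below them, and the difference of -0.18 (95% interval -0.77 to 0.41) was not called. Without KO array 2 it was -0.49 and called (adjusted p = 0.0222).

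Metallothioneins divided between Mt2 and the rest, with 1 of 4 members higher and 3 not called. Mt2 read 10.32, 10.68 and 11.12 on the arrays labelled KO, against 9.32, 9.44 and 9.28 on the control arrays. The gap between the groups was wider than the spread within either. Mt2 rose 2.57-fold, by 1.36 ± 0.18 on log2 (limma adjusted p = 0.00772), and missed the threshold without control 3 (adjusted p = 0.0518).

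Mt1, its neighbour on chromosome 8 and the other metallothionein of most tissues, read 9.57, 9.55 and 10.11 on the arrays labelled KO, against 9.17, 9.29 and 9.46 on the control arrays. All arrays labelled KO were higher, by 0.44 ± 0.16 on log2 on average, with array 3 farthest. The difference was not called (limma adjusted p = 0.163), but passed with the replicate block (adjusted p = 0.0433). Mt1 and Mt2 are close in sequence, and whether their probes share signal is not known here. Mt3, the brain form, read 7.76 to 8.05 on the arrays labelled KO and 7.95 to 8.02 on the control arrays, and Mt4, the form of stratified epithelia, 5.90 to 5.95 on the arrays labelled KO and 6.0 to 6.07 on the control arrays. Neither was called (differences of -0.077 and -0.11).

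Metallothionein genes are switched on by the zinc-sensing factor Mtf1 through metal response elements, whose core was searched as TGCACNC or TGCGCNC on both strands, in the 250 bases before each start in RefSeq's promoter table (GRCm38.p6). Of 32851 windows of all genes, 21.4% held at least 1 match and 1.26% held 3 or more. Windows were found for 39 of the 47 members, 52 in all, of which 19 held a match (36.5%). The Mt2 window held 3 matches and the Mt1 window 1. The Mt2 window ends just before the gene in RefSeq's gene table. The Mt1 window, chr8:94178839-94179088, lies mostly inside its gene, which begins at 94178883 there. The 2 counts thus cover unlike stretches and do not compare the 2 promoters. The window of Steap4, the gene with the largest rise, held none, which says only that these letters are not in it. Slc30a10, which was not called and stood at -0.15, held 3 like Mt2. Among called genes, Atp7a and Slc30a4 (higher) and Slc30a2 (lower) held 2. Steap1 held 1, as did 1 window of Steap2. Whether matches go with the changes was not tested. Both strings are shown to set the most changed metallothionein beside the most changed reductase. Capitals mark the matches, and the reverse complement counts as a match.
Mt2, chr8:94172368-94172617, plus strand: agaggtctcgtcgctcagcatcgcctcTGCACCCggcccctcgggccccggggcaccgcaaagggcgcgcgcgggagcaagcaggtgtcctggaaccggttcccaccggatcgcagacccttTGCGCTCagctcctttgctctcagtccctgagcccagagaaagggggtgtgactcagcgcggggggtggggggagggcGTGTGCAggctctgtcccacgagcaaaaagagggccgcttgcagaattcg
Steap4, chr5:7960222-7960471, plus strand: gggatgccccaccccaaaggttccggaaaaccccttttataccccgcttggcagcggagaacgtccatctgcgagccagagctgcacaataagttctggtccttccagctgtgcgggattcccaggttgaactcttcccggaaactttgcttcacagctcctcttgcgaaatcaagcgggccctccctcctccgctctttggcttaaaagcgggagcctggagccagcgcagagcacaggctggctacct
The Mt2 matches began 223, 128 and 50 bases before the start, the last on the minus strand. Slc30a1, the plasma membrane zinc exporter and another Mtf1 target, held 1 match in its window and stood at 0.027 ± 0.089 on log2 (not called). It read 8.13, 7.84 and 7.90 on the arrays labelled KO, against 8.03, 7.88 and 7.88 on the control arrays, and the groups overlapped.

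**Figure D2:**
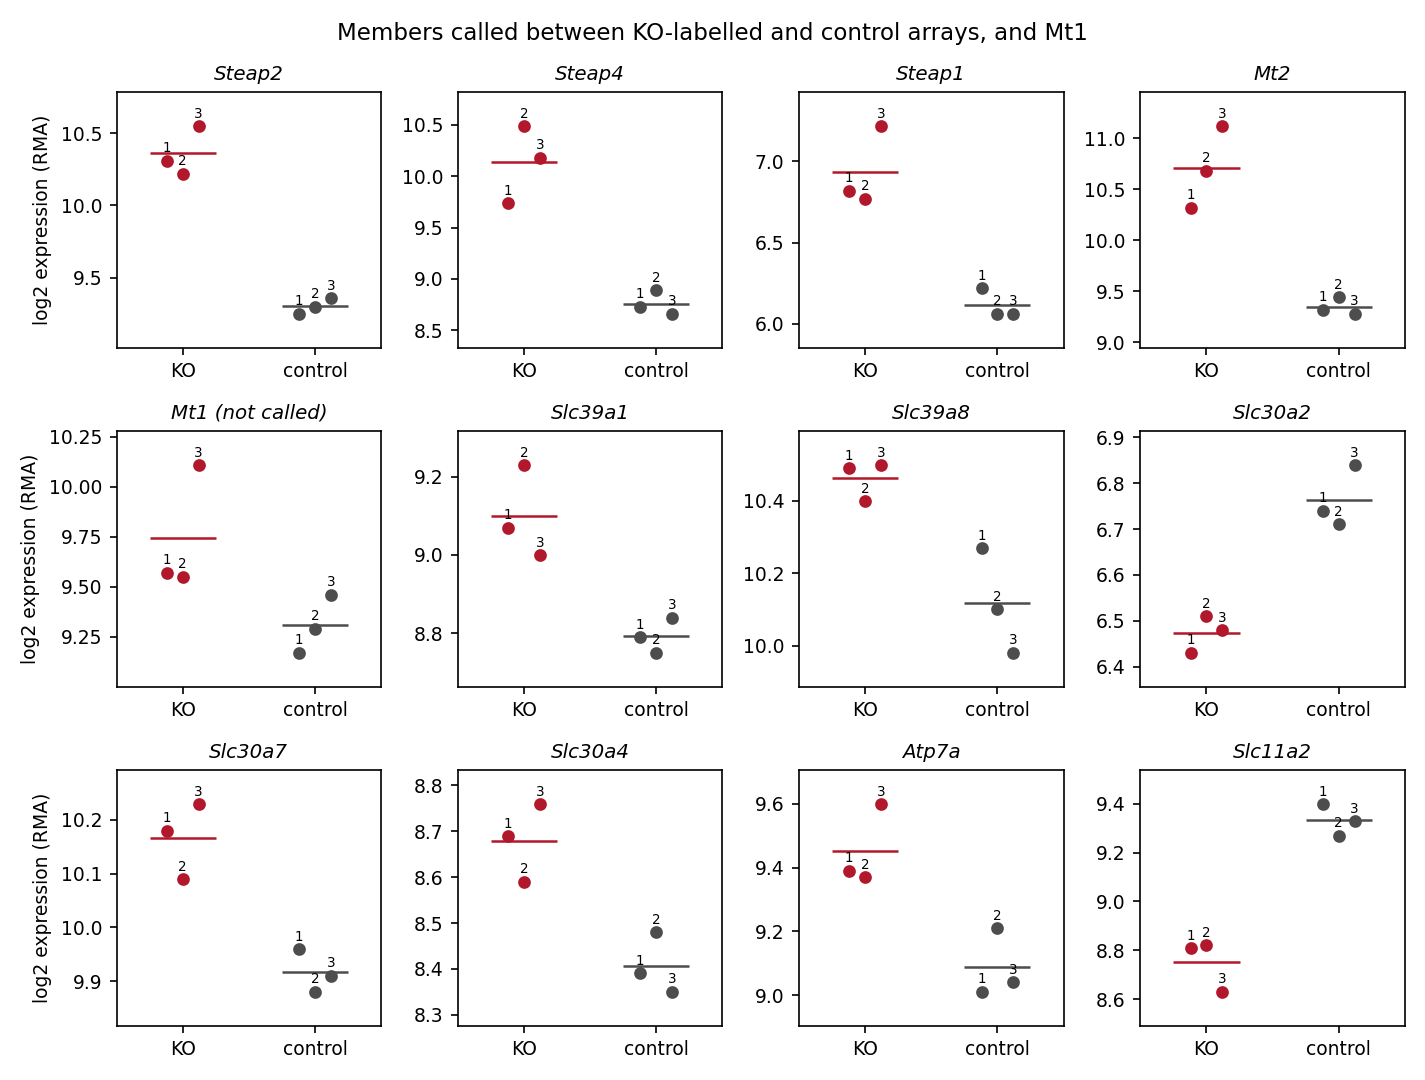
Log2 expression (y axis, its own range in each panel) on the 3 arrays labelled KO (red, left) and the 3 control arrays (grey, right), for the 11 called genes and Mt1. Numbers are replicate numbers and lines are group means. The groups do not overlap in any of these panels, and the gap is widest relative to the spread for Steap2 and Slc11a2.

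Of the 14 zinc importers, 2 rose, 0 fell and 12 did not pass. Slc39a8 (ZIP8), which brings zinc and manganese across the plasma membrane and is induced by NF-kappaB in human lung epithelium, read 10.49, 10.40 and 10.50 on the arrays labelled KO, against 10.27, 10.10 and 9.98 on the control arrays. The groups did not overlap, and the difference was 0.35 ± 0.08 on log2, or 1.27-fold (limma adjusted p = 0.0463). Slc39a1, a widely expressed plasma membrane importer, read 9.07, 9.23 and 9.0 on the arrays labelled KO, against 8.79, 8.75 and 8.84 on the control arrays, a rise of 0.31 ± 0.07 (limma adjusted p = 0.0442). Its other probe set gave a difference of 0.29.

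Both calls were near the threshold. With the replicate block the adjusted p was 0.0572 for Slc39a8 and 0.0828 for Slc39a1. Slc39a1 was not called without any 1 array (adjusted p of up to 0.171), and Slc39a8 was called only without control 1 among the 6 such fits (up to 0.165).

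The uncalled importers nearest the threshold, Slc39a10 and Slc39a9, were both lower on the arrays labelled KO. Slc39a10, a plasma membrane importer, read 8.78, 8.53 and 8.44 on the arrays labelled KO, against 8.84, 9.09 and 8.94 on the control arrays. All arrays labelled KO were lower, by 0.37 on average, and the gene was not called (adjusted p = 0.0804), though it passed without KO array 1 at a difference of -0.47 (adjusted p = 0.0186). It also passed with array weights and with a random block, both described below (limma adjusted p = 0.0352 and 0.0182). Slc39a9, an importer of the secretory pathway, read 9.90, 9.77 and 9.79 on the arrays labelled KO and 10.01, 9.98 and 10 on the control arrays (-0.18, adjusted p = 0.108).

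Slc39a14 (ZIP14), which carries zinc and free iron and is induced by interleukin 6 in mouse liver, read 6.66, 7.48 and 6.74 on the arrays labelled KO, against 6.43, 6.59 and 6.51 on the control arrays. Its mean difference of 0.45 ± 0.20 was not called (adjusted p = 0.263), and array 2 stood apart from the other 2. The other 9 importers, namely Slc39a2 to Slc39a7 and Slc39a11 to Slc39a13, had differences between -0.13 and 0.18 and were not called.

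Zinc exporters went both ways, with 2 of 10 higher, 1 lower and 7 not called. Slc30a7 (ZnT7), which loads zinc into the Golgi, read 10.18, 10.09 and 10.23 on the arrays labelled KO, against 9.96, 9.88 and 9.91 on the control arrays. It rose by 0.25 ± 0.06 on log2 (limma adjusted p = 0.0425). Slc30a4 (ZnT4), of the trans-Golgi and secretory vesicles, read 8.69, 8.59 and 8.76 on the arrays labelled KO and 8.39, 8.48 and 8.35 on the control arrays, a rise of 0.27 ± 0.07 (limma adjusted p = 0.0487). The arrays did not overlap for either gene.

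Slc30a2 (ZnT2), a vesicular exporter best known from mammary and pancreatic secretory cells, was the 1 exporter that fell. It read 6.43, 6.51 and 6.48 on the arrays labelled KO, against 6.74, 6.71 and 6.84 on the control arrays, a drop of 0.29 with an SE of 0.06 (limma adjusted p = 0.0252). With the replicate block the adjusted p was 0.067 for Slc30a7, 0.104 for Slc30a4 and 0.051 for Slc30a2. Slc30a7 and Slc30a4 kept their calls only without KO array 2 among the fits without 1 array, with adjusted p of up to 0.178, and Slc30a2 lost its call without KO array 3 or any 1 control array (up to 0.0991).

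Among the other exporters, Slc30a5, Slc30a6 and Slc30a9 had small positive differences without a call. Slc30a6 read 9.05, 8.99 and 9.12 on the arrays labelled KO, against 8.91, 8.83 and 8.90 on the control arrays (0.17, adjusted p = 0.125). Slc30a5, which pairs with Slc30a6 to supply zinc to secreted enzymes, differed by 0.17 and the widely expressed Slc30a9 by 0.15 (adjusted p = 0.194 and 0.177). Slc30a10, which exports manganese in human cells, read 5.69, 5.60 and 5.67 on the arrays labelled KO and 5.84, 5.77 and 5.80 on the control arrays (-0.15, adjusted p = 0.144). Slc30a3 of synaptic vesicles and Slc30a8 of insulin granules differed by 0.03 and 0.023.

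Among the 3 copper transporters, Atp7a was called. Atp7a, the copper pump of the Golgi and plasma membrane, read 9.39, 9.37 and 9.60 on the arrays labelled KO, against 9.01, 9.21 and 9.04 on the control arrays. It rose by 0.37 ± 0.09 on log2, or 1.29-fold (limma adjusted p = 0.0451). With the replicate block the adjusted p was 0.072, and without KO array 3 or any 1 control array it reached up to 0.169.

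Slc31a1 (CTR1), the main copper importer, read 11.13, 11.04 and 11.30 on the arrays labelled KO, against 10.74, 10.99 and 10.84 on the control arrays. The groups did not overlap, although KO array 2 and control 2 lay close, and the difference of 0.30 ± 0.09 was not called (adjusted p = 0.103). Atp7b, the related copper pump of liver, read 9.73, 9.73 and 10.19 on the arrays labelled KO and 9.73, 9.99 and 10.07 on the control arrays, with full overlap (-0.047, 95% interval -0.39 to 0.30).

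Iron uptake and export genes gave the clearest fall and several values that spread widely. Slc11a2 (DMT1), the transporter that passes ferrous iron from endosomes and across apical membranes, read 8.81, 8.82 and 8.63 on the arrays labelled KO, against 9.40, 9.27 and 9.33 on the control arrays. The nearest arrays of the groups were KO array 2 at 8.82 and control 2 at 9.27. Slc11a2 fell by 0.58 on log2 with an SE of 0.07, 1.49-fold lower (limma adjusted p = 0.00585, and 0.000997 to 0.0401 over the alternatives).

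Tfrc, the transferrin receptor, read 10.65, 10.28 and 10.67 on the arrays labelled KO, against 10.20, 10.07 and 9.93 on the control arrays. All arrays labelled KO were higher, by 0.47 ± 0.12 on average, without a call (limma adjusted p = 0.0638). The gene passed without KO array 2 (0.59, adjusted p = 0.0139), and its adjusted p was up to 0.216 without another array. It also passed with array weights and with a random block, both described below (limma adjusted p = 0.0230 and 0.0182). Tfrc is known to be raised in dividing cells and in red cell precursors. Means of the proliferation markers, 9 of 10 measured, were 8.81, 8.29 and 8.61 on the arrays labelled KO, against 7.86 to 8.04 on the control arrays. Of these 9 markers, 4 were called higher. Their mean was lowest on KO array 2, as was Tfrc, and highest on KO array 1, where Tfrc was highest on KO array 3. Means of the erythroid markers, 5 of 9 measured, were 9.08, 8.36 and 8.05 on the arrays labelled KO and 7.44 to 8.06 on the control arrays. They were lowest on KO array 3, and 0 of the 5 were called. The part of either in the Tfrc difference was not tested. In pooled cells, a change in the number of cells of a type and a change in RNA per cell cannot be told apart.

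Trf, transferrin itself, read 11.25, 11.19 and 10.96 on the arrays labelled KO, against 11.37, 11.29 and 11.21 on the control arrays (-0.16, not called). The ferritin heavy chain Fth1 read 12.65, 12.69 and 12.66 on the arrays labelled KO, against 12.68, 12.68 and 12.67 on the control arrays, and the groups overlapped (-0.01, not called). The ferritin light chain Ftl1 read 11.45, 11.46 and 11.09 on the arrays labelled KO, against 11.59, 11.59 and 11.61 on the control arrays. Each array labelled KO was below each control, with array 3 farthest, and the difference of -0.26 was not called (adjusted p = 0.188), nor was it without KO array 3, where it was -0.14.

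Iron regulatory proteins bind iron response elements, by which they stabilise the Tfrc transcript and hold back ferritin translation. Aco1, the form that doubles as cytosolic aconitase, read 10.42, 10.27 and 10.35 on the arrays labelled KO, against 10.17, 10.11 and 10.11 on the control arrays (0.22 ± 0.06, limma adjusted p = 0.0682). Ireb2, the other form, read 9.91, 9.78 and 9.96 on the arrays labelled KO and 9.74, 9.77 and 9.67 on the control arrays (0.16 ± 0.06, adjusted p = 0.214). Neither was called. All arrays labelled KO lay above the controls for both, as they did for 14.8% of all genes. For Ireb2 the nearest arrays were 9.78 and 9.77. Aco1 passed without KO array 2 (adjusted p = 0.0429). It also passed under some of the other alternatives described below (limma adjusted p = 0.0120 to 0.0486). The hormone hepcidin (Hamp) read 3.85 to 4.12 on the arrays labelled KO and 3.90 to 3.97 on the control arrays, near the low end of the array scale.

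Some members spread widely among the arrays labelled KO. For 9 of the 47 the range over these 3 arrays was 0.5 or more (19.1%, against 8.4% of all genes), while 1 member had such a range over the control arrays (2.13%, against 0.953%). This limit was chosen after the values were seen. The 9 include the called genes Mt2 and Steap4, whose ranges of 0.80 and 0.75 were smaller than their differences of 1.36 and 1.38 between the groups. Lactoferrin (Ltf), an iron-binding protein of airway and neutrophil secretions, read 7.12, 6.64 and 9.25 on the arrays labelled KO, against 6.96, 6.72 and 6.66 on the control arrays. Array 3 stood alone, and the mean difference of 0.89 ± 0.61 was not called (adjusted p = 0.473).

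Among the 7 measured club cell markers, Scgb3a1, Bpifa1 and Muc5b were highest on KO array 3 of the arrays labelled KO, as by 0.01 were Scgb1a1 and Scgb3a2, while Cyp2f2 and Aldh1a1 were lowest there. Scgb3a1 read 10.13, 10.15 and 12.02 on the arrays labelled KO and 10.65, 10.90 and 10.50 on the control arrays. Aldh1a1 read 12.25, 12.03 and 11.82 on the arrays labelled KO and 12.74, 12.64 and 12.59 on the control arrays. Means of the club cell list, with 7 of 8 measured, were 10.20 to 11.27 on the arrays labelled KO, with array 3 highest, and 10.80 to 11.02 on the control arrays, and 3 of the 7 were called lower. Means of the 10 neutrophil markers were 5.31 to 5.36 on the arrays labelled KO and 5.22 to 5.31 on the control arrays, with S100a8 at 4.61 to 4.67 on the arrays labelled KO and likewise on the control arrays, and 1 of the 10, Retnlg, was called higher. The part of these cells in the Ltf value was not tested.

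Array 2 labelled KO was the highest for 6 of these 9 members. Ferroportin (Slc40a1), the iron exporter, read 6.79, 8.35 and 7.08 on the arrays labelled KO, against 6.76, 7.44 and 6.99 on the control arrays. Ceruloplasmin (Cp), the copper-binding ferroxidase that loads iron onto transferrin, read 10.54, 11.43 and 10.85 on the arrays labelled KO and 10.70, 10.97 and 10.77 on the control arrays. Hephaestin (Heph), the membrane ferroxidase, read 6.65, 7.40 and 6.95 on the arrays labelled KO and 6.74, 6.84 and 6.89 on the control arrays. For Slc40a1 and Cp, array 2 was the highest of both groups.

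These 3 genes act together in iron export, and none was called, at differences of 0.34, 0.13 and 0.18 on log2. Without KO array 2 the differences were -0.13, -0.12 and -0.023. Fibroblast markers did not share 1 order. Of the 7, Pdgfra and Tcf21 were highest on array 2 of each group, and Dcn and Lum on array 1 of each group. Col1a1, Col1a2 and Col3a1 were highest on KO array 2 and on control 1. Pdgfra read 9.12, 11.08 and 10.18 on the arrays labelled KO and 10.23, 10.80 and 10.62 on the control arrays. Dcn read 11.41, 10.63 and 10.48 on the arrays labelled KO and 11.54, 11.12 and 10.92 on the control arrays. Means of the 7 fibroblast markers were 8.79, 9.43 and 8.93 on the arrays labelled KO and 9.33, 9.26 and 9.08 on the control arrays, highest on KO array 2 and on control 1. Macrophage markers, 12 of 15 measured, had means of 5.65 to 5.81 on the arrays labelled KO and 5.69 to 5.79 on the control arrays, and 0 of the 12 were called by limma. The part of these cells in the values of Slc40a1, Cp and Heph was not tested.

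**Figure D3:**
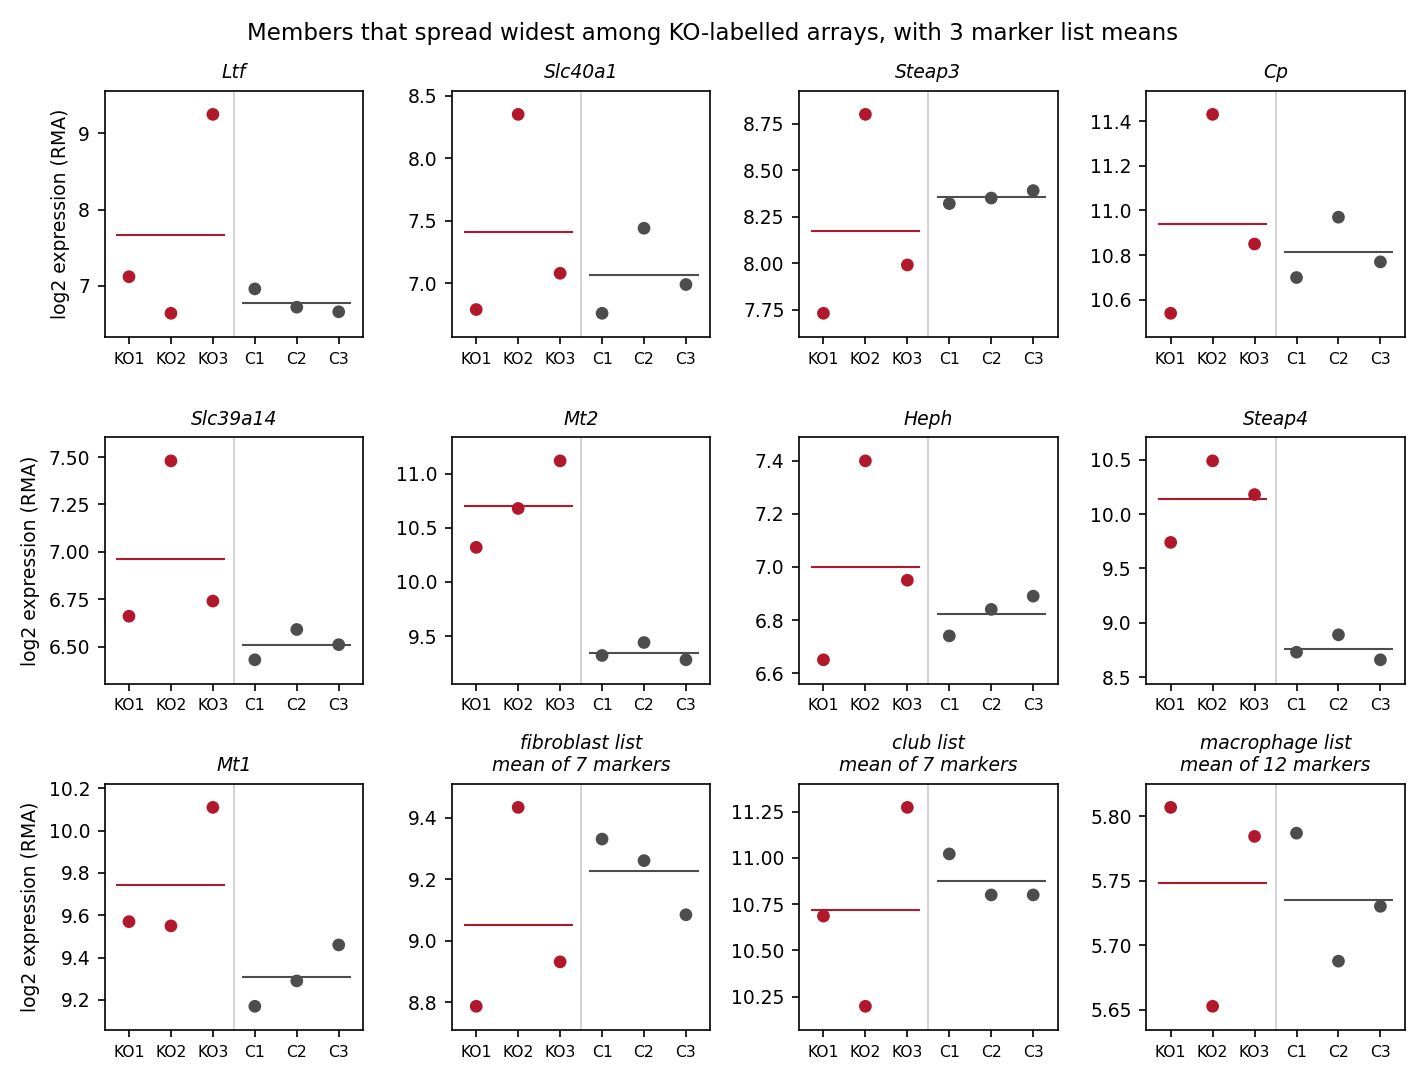
Log2 expression (y axis, its own range in each panel) on the arrays labelled KO (KO1 to KO3, red) and the control arrays (C1 to C3, grey), for the 9 members with a range of 0.5 or more among the arrays labelled KO and for the mean log2 level of the fibroblast, club and macrophage marker lists. Lines are group means. KO2 is highest for Slc40a1, Steap3, Cp, Slc39a14, Heph and Steap4 and for the fibroblast mean, where C1 is highest of the controls, and KO3 is highest for Ltf, Mt2 and Mt1 and for the club mean.

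Ciliated cell markers fell most among the cell type lists, with 11 of 11 measured called lower and means of 8.12 to 8.69 on the arrays labelled KO, against 9.31 to 9.40 on the control arrays. Their mean was highest on KO array 1 and lowest on KO array 3. Of the 2 members that fell, Slc11a2 was lowest on KO array 3 and Slc30a2 on KO array 1, and both were highest on KO array 2. The part of ciliated cells in these falls was not tested.

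Outside the named families, 69 further genes of metal biology were measured, of 76 listed. Of these 4 rose, 3 fell and 62 did not pass (5.8% and 4.35%, against the 3.36% and 5.13% of all genes above), with a median difference of 0.027. Lcn2, a lipocalin that captures bacterial iron carriers, read 12.69, 12.89 and 12.89 on the arrays labelled KO, against 11.90, 11.92 and 11.92 on the control arrays (0.91 ± 0.07, limma adjusted p = 0.00324). Fbxl5, the iron-sensing ubiquitin ligase subunit that removes Ireb2 protein, read 9.59, 9.44 and 9.61 on the arrays labelled KO and 9.19, 9.22 and 9.17 on the control arrays (0.35 ± 0.06, adjusted p = 0.0173).

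Car2, a zinc-dependent carbonic anhydrase, read 11.54, 11.21 and 11.13 on the arrays labelled KO, against 10.77, 10.72 and 10.57 on the control arrays (0.61 ± 0.11, limma adjusted p = 0.0228). Cpox, a late enzyme of haem synthesis, rose by 0.26 ± 0.06 (adjusted p = 0.0423), and by the same amount without a call with the replicate block (adjusted p = 0.0705).

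Alas1, the first enzyme of haem synthesis, fell most among them. It read 11.52, 11.28 and 11.33 on the arrays labelled KO, against 12.03, 11.97 and 11.98 on the control arrays, 1.53-fold lower (-0.62 ± 0.07, limma adjusted p = 0.00546). The copper and zinc superoxide dismutase Sod1 read 11.43, 11.25 and 11.18 on the arrays labelled KO, against 11.67, 11.62 and 11.66 on the control arrays (-0.36 ± 0.07, adjusted p = 0.0274). Haptoglobin (Hp), which binds free haemoglobin, read 12, 11.80 and 11.58 on the arrays labelled KO and 12.31, 12.23 and 12.21 on the control arrays (-0.46 ± 0.10, adjusted p = 0.0423). Lcn2 and Alas1 kept their calls without any 1 array. Fbxl5, Cpox, Car2, Sod1 and Hp lost theirs without any 1 control array, with adjusted p between 0.069 and 0.15. Of these, Fbxl5, Cpox, Sod1 and Hp also lost theirs without KO array 3 (0.0583 to 0.106), Sod1 and Hp without KO array 2 (0.0535 and 0.0698), and Cpox without KO array 1 (0.0607).

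The strength of the 11 calls differed within the list. Steap2, Steap4 and Slc11a2 were called under each of the 13 alternatives, Mt2 under 12 and Steap1 under 11. The other 6 were called under 6 to 8 of them.

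**Figure D4:**
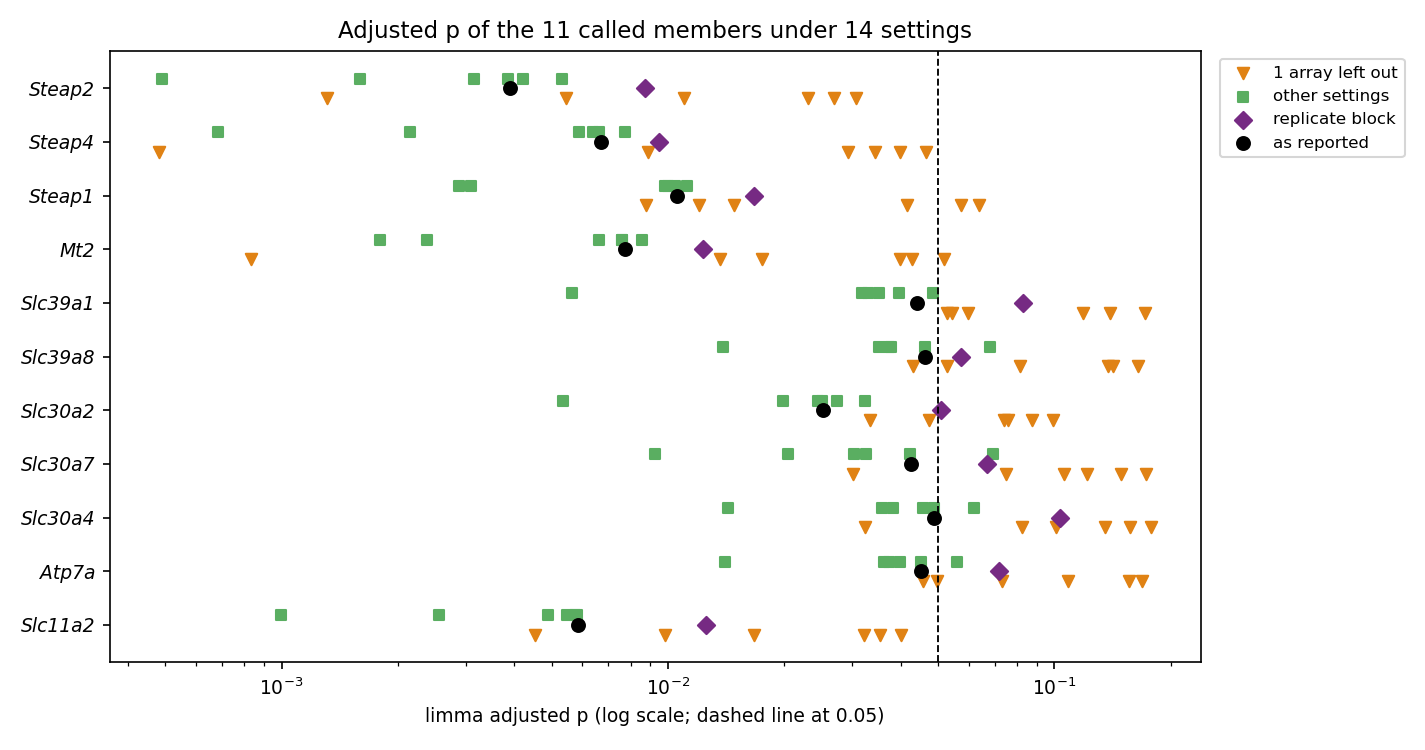
Adjusted p from limma (x axis, log scale) of the 11 called members as reported (black), with the replicate block (purple), with 1 array left out (orange) and under the other alternatives (green). The dashed line is at 0.05. Steap2, Steap4 and Slc11a2 lie left of it in every setting, and each Slc30a, Slc39a and Atp7a point set lies on both sides.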

How the data were processed

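Expression was measured on 6 Affymetrix arrays of pooled type II cells, with 3 arrays per group and the groups taken from the array titles. The authors deposited log2 expression values. Per the submitters' processing notes, RMA and Affymetrix Expression Console 1.1 were used, and no genome build of the array is named there. RMA removes differences shared by most genes, and no detection calls were used here. Precision is limited by the number of arrays.

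Of 35556 probe sets, the platform annotation gave 21789 a single gene symbol, 1621 several and 12146 none. All 47 members matched a RefSeq gene (GRCm38.p6) by Entrez identifier. The groups were compared in R 4.3.3 with limma 3.58.1 (a linear model with eBayes, two-sided, Benjamini-Hochberg over 19938 genes, threshold 0.05), without a filter or covariate. No test was run on the members as a set. Values in every array are given for called members, the 8 uncalled ones with the smallest p and the member of each role with the highest mean, as fixed in advance. Other members shown array by array, and the genes shown for their spread, were chosen after their values were seen. The members and lists were chosen with earlier results of these data known. Tested on simulated data of 19938 genes, the fit recovered 63 of 100 genes changed by 0.5 on log2 and 90 of 100 changed by 1, and called 6 unchanged genes. The simulated noise was normal, independent between genes, and of the same spread in both groups. The real arrays labelled KO spread more than the controls (median SD 0.091 against 0.062), so these rates need not hold for this comparison.

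P-values set the groups against the spread between pools, not between single mice. The titles give both groups the replicate numbers 1 to 3. Same-numbered arrays of the groups deviated weakly together from their group means (r = 0.192, 0.103 and 0.111 over all genes). Arrays of unlike number had r between -0.135 and 0.0428. Deviations from a group mean cancel out, so some r are positive by construction. That the numbers mark pairs rests on these values alone. Only the replicate block treated them as pairs, and the main fit, with its p-values and counts, ignored them. The first further number in the titles, unexplained in the labels, was 9, 9 and 11 on the arrays labelled KO and 8, 8 and 10 on the control arrays. If it marks a batch, batch and group cannot be told apart by comparing within it. Alternatives were a replicate block, that number as a random block, a filter on dim genes, a variance trend, array weights, repeated quantile normalization, the mean of a gene's probe sets, and leaving out each array.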

Additional observations from a re-analysis of the deposited data

How the results depend on the processing

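No result changed direction with a call on either side, under any of the 13 alternatives run on 47 members and 69 further metal genes. Among uncalled members 15 changes of sign were seen in 10 genes. With the replicate block the members called were 5 higher and 1 lower, and with quantile normalization repeated 5 were higher, with Atp7a, Slc30a4, Slc30a7 and Slc39a8 lost. The block changed no call of a member or further metal gene beyond those named with it above. With the first title number as a random block, where the estimated correlation was -0.51, the counts were 14 higher and 5 lower for members, 7 higher for further metal genes, and 1881 higher and 1804 lower for all genes, against 670 and 1022. Without 1 array, members ran from 2 to 9 higher and from 1 to 3 lower, further metal genes from 1 to 4 higher and from 1 to 4 lower, and all genes from 144 to 835 higher and from 301 to 1265 lower. The lowest counts of higher genes came without control 2 or control 3. The other alternatives kept each count within 1.5 times. The fits that leave out 1 array also hold fewer arrays. The cause of these shifts was not tested.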
